A study of Homo sapiens with 8 samples.

Results

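The untreated state described here is that of LNCaP-FGC cells kept for 24 h with DMSO, the solvent of the study's compounds. It was measured in 2 of the 8 RNA-seq libraries of the series, chosen because their labels name DMSO as the treatment. LNCaP is an established, androgen-dependent prostate cancer cell line, so all libraries come from a single line. The study set DMSO beside I-CBP112, A-485 and both compounds together, with 2 libraries of each, to inhibit the bromodomain and the acetyltransferase site of the coactivators p300 and CBP. Total RNA was prepared with Trizol, cleared of DNA with DNase and turned into libraries by an NEB protocol. The labels do not say whether libraries 1 and 2 of a group come from separate cultures, so the spread between them may be technical.

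LNCaP cells stand for the luminal cells of the prostate gland, which make the secreted proteins of seminal fluid. Steroid receptors, a class of hormone-activated transcription factors, are held by chaperones until hormone binds, and then occupy DNA and call in coactivators, among them p300 and CBP. In luminal cells androgen raises genes such as KLK3, which codes for prostate-specific antigen, at DNA that the factors FOXA1 and HOXB13 also occupy.

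Levels are given as scaled FPKM, fragments per kilobase of transcript normalized to library size, summed over the transcripts of a gene and rescaled so that libraries can be compared. Because FPKM is per length, levels of different genes can be set side by side. Replicate 1 and replicate 2 are the libraries that the labels number so. In the table's column names the libraries with number 1 share a prefix and those with number 2 share another, and the labels do not say what it marks, so library number and what the prefix marks cannot be told apart. The deposited FPKM summed to 808443 in replicate 1 and 187776 in replicate 2, against a range of 181486 to 766588 in the other 6 libraries. The steps between low values put the fragments assigned to transcripts at about 21.0 M (M, 1000000) in replicate 1 and 4.68 M in replicate 2. The library sizes used to normalize FPKM were estimated at 21.2 M and 20.7 M. The assigned fragments were thus 99.2% of this size in replicate 1 and 22.6% in replicate 2, and the cause of the gap was not tested. A single fragment on a transcript of 2000 bases is then worth 0.0374 in replicate 1 and 0.143 in replicate 2, and 3 fragments are worth 0.112 and 0.428. Values near or below these levels rest on a handful of fragments. Some genes are also listed at or near 0 in a single library while they stand well above 10 in the other, so a lone 0 is not read as absence.

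Of 19431 genes, 10856 (55.9%) reached a level of 1 in both libraries, and counts of lists and families below are to be read against this share. A level of 10 was reached by 6414 genes, a level of 100 by 1227 and a level of 1000 by 139. At the other end, 5686 genes (29.3%) were under 0.1 in both libraries, and 4514 of these were listed at 0 in both. The middle of the genes at 1 or more was at 16.6. A level of 1 was reached only in replicate 1 by 318 genes and only in replicate 2 by 406 genes.

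The RNA pool was held by few genes, most of them parts of the translation and respiratory machinery. The 50 highest genes held 34.7% of the total in replicate 1 and 32.8% in replicate 2, and the 100 highest held 46.8% and 47.7%. All of the 30 highest genes code for ribosomal proteins (20), proteins encoded in mitochondria (7) or translation factors (3). The 77 cytosolic ribosomal protein genes took 29.7% of the total in replicate 1 and 34.1% in replicate 2, all 77 were above 100 in both libraries, and their means ran from 352 to 12468. The 13 genes encoded in mitochondria took 11.1% in replicate 1 and 8.16% in replicate 2.

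Within these classes, RPS2, a protein of the small ribosomal subunit, stood at 14447 in replicate 1 and 10490 in replicate 2. RPLP0, a protein of the ribosomal stalk, stood at 12720 and 8652. MT-CO2, a subunit of cytochrome oxidase, was at 15533 in replicate 1 and 9673 in replicate 2. EEF1A1, the elongation factor that brings charged tRNA to the ribosome, was at 7854 and 9540. MT-ATP8 had the highest value of the table, 27260 in replicate 1 and 16211 in replicate 2, but its transcript is shorter than 300 bases and overlaps MT-ATP6, so its reads cannot be split with certainty. Transcripts of such length took 5.38% of the FPKM in replicate 1 and 4.82% in replicate 2, and for 44 genes at 1 or more they held most of the FPKM in both libraries. RPS29 (9881 in replicate 1 and 10152 in replicate 2) is such a gene, with 99.8% and 99.7% of its FPKM on a short transcript.

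Outside translation and mitochondria, housekeeping genes came first, and a prostate product stood among them. FTH1, the ferritin heavy chain that stores iron, led with 6660 in replicate 1 and 5762 in replicate 2. GAPDH, an enzyme of glycolysis, was at 4352 and 2967. CKB, the brain-type creatine kinase, was at 4135 in replicate 1 and 2898 in replicate 2, though without its short transcript it would be at 1932 and 1223. PPIA, the cyclophilin A isomerase, was at 3221 and 2874. KLK3 came eleventh among these genes and 95th of all genes, at 2325 in replicate 1 and 1982 in replicate 2 (2154 ± 242, SD, n = 2). It thus lay at the level of the actins, with ACTB at 2141 in replicate 1 and 1553 in replicate 2. GDF15, a secreted stress cytokine of the TGF-beta family, closed the 20 highest at 1982 and 1642.

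**Figure D1:**
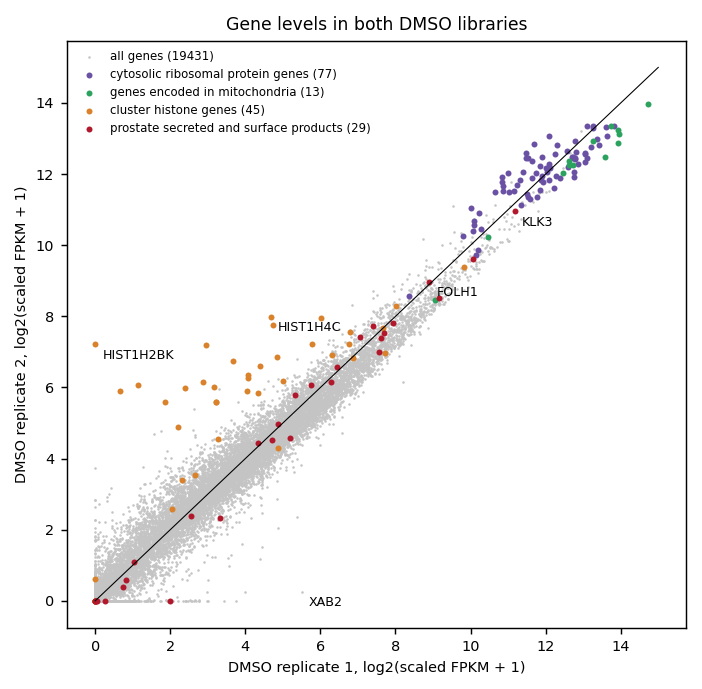
Level of each of 19431 genes in DMSO replicate 1 (horizontal axis) and DMSO replicate 2 (vertical axis), both as log2(scaled FPKM + 1), with 4 gene classes in colour and the line of equality in black. Ribosomal and mitochondria-encoded genes fill the upper right corner, KLK3 lies among them, and many cluster histone genes lie above the line.

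The cell line was first checked against markers of the cells it stands for. Of 19 keratins and junction genes of luminal epithelium, 18 reached 1 in both libraries, against 55.9% of all genes. KRT8, the simple-epithelial keratin, was at 1254 in replicate 1 and 754 in replicate 2, and at 817 and 465 when only transcripts of at least 300 bases were summed and rescaled. KRT18, its partner in the filament, was at 700 and 610. CLDN7, a tight-junction protein, was at 706 in replicate 1 and 540 in replicate 2, and CDH1, the epithelial cadherin, was at 131 and 127. EPCAM, an epithelial adhesion molecule, was at 58.2 and 63.8. The member short of 1 in a library was KRT7, a keratin of ducts, at 0.046 in replicate 1 and 1.41 in replicate 2.

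Markers of other cell types were mostly low. Of 9 markers of basal prostate epithelium, only ITGA6, an integrin chain found on many epithelia, reached 1 in both libraries (6.70 in replicate 1 and 7.97 in replicate 2). TP63, the defining factor of basal cells, was listed at 0 in both. The basal keratin KRT5 was at 0.235 in replicate 1 and 6.64 in replicate 2, and the adhesion receptor CD44 at 0.202 and 3.65, so the summed level of the basal list was 9.40 in replicate 1 and 21.0 in replicate 2. Of 12 neuroendocrine markers, 3 reached 1 in both libraries and 8 were under 0.1 in both, among them CHGA, the granule protein chromogranin A. The 3 were ENO2, a neuronal enolase (30.7 in replicate 1 and 17.5 in replicate 2), DLL3, a Notch ligand (16.7 and 8.35), and SYP, a vesicle protein (1.53 and 1.57).

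Stromal, endothelial and blood markers gave 4 of 13, 1 of 5 and 1 of 8 genes at 1 or more in both libraries. FN1, the matrix protein fibronectin, was at 18.3 in replicate 1 and 20.4 in replicate 2, and VIM, the mesenchymal filament protein vimentin, at 5.19 and 4.10. ACTA2, the smooth muscle actin, was at 23.2 in replicate 1 and 11.3 in replicate 2, and COL1A1, a chain of collagen I, at 3.56 and 3.48. DES, LUM and FAP, other markers of muscle and fibroblasts, were under 0.1 in both libraries. PTPRC, the common antigen of white blood cells, and HBB, a haemoglobin chain, were also under 0.1 in both. The luminal label is thus matched by high keratins and junction genes beside a TP63 listed at 0.

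**Figure D2:**
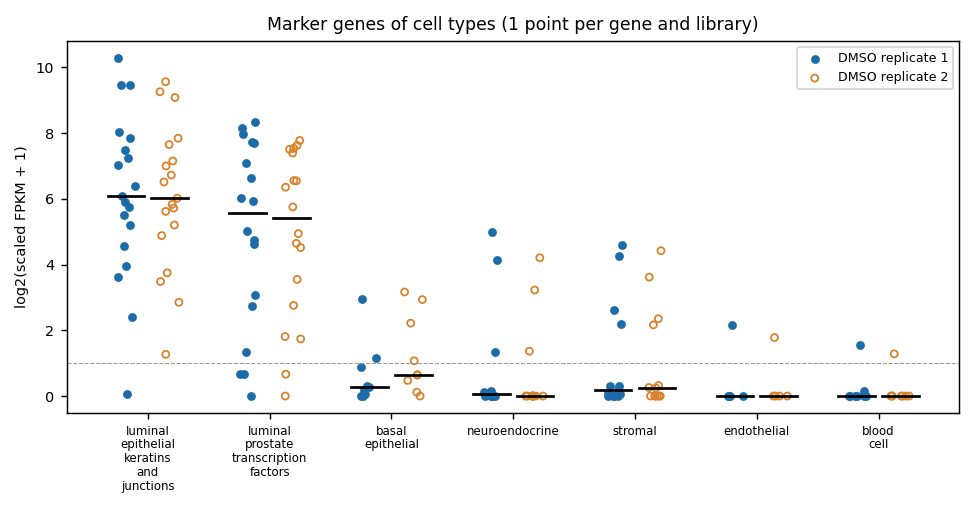
Level of marker genes for 7 gene lists as log2(scaled FPKM + 1), with 1 point for each gene and library (filled, DMSO replicate 1; open, DMSO replicate 2), black bars at the medians and a dashed line at a scaled FPKM of 1. The medians of both luminal lists lie well above the line, while the medians of the basal, neuroendocrine, stromal, endothelial and blood lists lie below it.

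KRT5, CD44 and KRT17 of the basal list and KRT7 of the luminal list were each higher in replicate 2. KRT14 and ITGB4 of the basal list went the other way, at 0.856 and 1.21 in replicate 1 and at 0.562 and 0.559 in replicate 2. For KRT5, CD44, KRT17 and KRT7, a higher level in number 2 was also seen in part of the other libraries. KRT5 was at 0.597, 0.255 and 0 in the other libraries with number 1 (I-CBP112, A-485, both compounds), and at 13.98, 0 and 1.65 in those with number 2. The part of other cells in the libraries was not tested.

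The chaperones that hold steroid receptors were present throughout. All 13 genes of a list on steroid receptor signalling, most of them chaperones and their partners, reached 10 in both libraries. HSPA8, the constitutive HSP70 chaperone, was at 1416 and 1608, and HSP90AB1, the constitutive HSP90, at 989 and 910. FKBP4, an immunophilin of steroid receptor complexes, was at 421 in replicate 1 and 262 in replicate 2. FKBP5, a second immunophilin and a known androgen-induced gene, was at 24.6 and 19.3, far below FKBP4 in both libraries.

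Of 18 transcription factors of luminal prostate cells, 15 reached 1 in both libraries (83.3%, against 55.9% of all genes) and 5 reached 100. HOXB13, the prostate homeobox factor, was at 283 in replicate 1 and 181 in replicate 2. FOXA1, the pioneer factor that opens chromatin for other factors, was at 210 and 167. XBP1, a factor of the secretory pathway, led the list with 323 and 218, and MYC, a growth-promoting factor, was at 251 and 196. GATA2, a zinc finger factor, was at 98.0 in replicate 1 and 80.8 in replicate 2. SPDEF, an ETS-type factor of luminal cells, was at 134 and 92.5. SOX9, a factor of progenitor cells, was at 0.592 and 0.585, and GATA3 was listed at 0 in both.

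HOXB13 stood apart within its gene family. The next gene of the HOX B cluster, HOXB9, was at 4.87 in replicate 1 and 3.60 in replicate 2. In the HOX C cluster, 6 of 9 genes reached 1 in both libraries, led by HOXC6 at 17.7 and 15.8. In the HOX A cluster this held for 3 of 11 genes, with HOXA10 highest at 3.91 and 4.79. All 9 genes of the HOX D cluster were under 0.1 in both libraries.

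ETS factors matter in prostate tumours because fusions place ERG or its relatives under the TMPRSS2 promoter. ERG was at 0.0513 in replicate 1 and listed at 0 in replicate 2, and FLI1 was listed at 0 in both. ETV1, the member known to be rearranged in LNCaP, was at 27.0 in replicate 1 and 30.6 in replicate 2. ETV4 was at 0.400 and 0.384, and ETV5 at 0.164 and 0.121. In all, 13 of 20 ETS genes (65%) reached 1 in both libraries, near the 55.9% of all genes. ELK1, a factor of the serum response, was at 54.5 and 30.9. ERF, an ETS repressor, was at 62.0 in replicate 1 and 19.8 in replicate 2, a gap taken up again with the library differences.

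The products of the luminal cell were led by secreted proteases and membrane proteins. Of 29 measured products, 21 reached 1 in both libraries (72.4%, against 55.9% of all genes) and 10 reached 100. KLK2, a protease that activates prostate-specific antigen, was at 568 in replicate 1 and 363 in replicate 2. KLK4, another prostate kallikrein, was at 246 and 225. Together KLK2, KLK3 and KLK4 took 0.254% of the total in replicate 1 and 0.241% in replicate 2. Of 16 genes named as kallikreins, KLKB1 included, these 3 alone reached 1 in both libraries. KLK15 was at 2.97 in replicate 1 and listed near 0 in replicate 2.

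Among the other products, SPON2, a secreted matrix protein, was at 1079 in replicate 1 and 781 in replicate 2. FOLH1, the prostate-specific membrane antigen, was at 478 and 499. STEAP1 and STEAP2, membrane proteins of the metalloreductase family, were at 169 and 132 in replicate 1 and at 213 and 171 in replicate 2. TMPRSS2, an androgen-driven membrane protease, was at 195 and 165. SLC45A3, a transporter known as prostein, was at 188 in replicate 1 and 126 in replicate 2. ACPP, the prostatic acid phosphatase, lay lower at 19.2 and 20.5, and TRPM8, a cold-sensing channel, at 4.88 and 4.19. SEMG1 and SEMG2, the semenogelins of the seminal vesicle, were listed at 0 in both libraries. MSMB was not analysed here.

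The promoters of KLK3 and KLK2 are shown because both genes are classical androgen-induced genes and lie beside each other on chromosome 19. RPLP0 is shown as a promoter of the ribosomal class. Each line gives the 250 bases before the gene's start from RefSeq (GRCh38.p14), 5′ to 3′ on the gene's strand. KLK3 covers chr19:50854665-50854914 (plus strand), KLK2 chr19:50873189-50873438 (plus strand) and RPLP0 chr12:120201112-120201361 (minus strand). Capitals mark, in KLK3, the 15 bases that begin with AGAACA, a sequence known as an androgen response element of this promoter, in KLK2 the 15 bases most like it, and in RPLP0 a TATAA.
KLK3: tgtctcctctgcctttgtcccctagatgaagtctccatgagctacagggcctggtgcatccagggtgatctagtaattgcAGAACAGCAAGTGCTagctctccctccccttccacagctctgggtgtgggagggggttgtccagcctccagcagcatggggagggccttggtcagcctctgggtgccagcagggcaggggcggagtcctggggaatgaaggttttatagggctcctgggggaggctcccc
KLK2: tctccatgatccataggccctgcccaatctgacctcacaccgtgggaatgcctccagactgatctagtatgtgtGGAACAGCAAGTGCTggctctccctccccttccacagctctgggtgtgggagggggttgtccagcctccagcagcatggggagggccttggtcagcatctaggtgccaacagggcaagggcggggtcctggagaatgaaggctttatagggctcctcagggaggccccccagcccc
RPLP0: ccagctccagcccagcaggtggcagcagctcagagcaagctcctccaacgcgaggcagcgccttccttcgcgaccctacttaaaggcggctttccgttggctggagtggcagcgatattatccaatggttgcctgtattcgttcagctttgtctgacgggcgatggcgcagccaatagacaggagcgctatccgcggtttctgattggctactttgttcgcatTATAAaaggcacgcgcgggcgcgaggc

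The marked stretches of KLK3 and KLK2 matched at 14 of 15 bases, with the substitution A1G, counted from 1 at the 5′ end of the stretch in KLK3. They begin 170 bases before the start in KLK3 and 176 bases before it in KLK2. The longest run of identical bases that the 2 promoters share is 80 bases, and it begins at -154 in KLK3 and -160 in KLK2. KLK3 holds 1 CpG in these 250 bases, KLK2 holds 2 and RPLP0 holds 21, at GC contents of 60.8%, 61.2% and 58.4%. A like GC content thus went with few CpG in the kallikreins and many in RPLP0. A match is a description of the letters, not a sign of binding in these cells.

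The same contrast appeared over classes of promoters, taken as 250 bases before to 50 bases after the start for 15200 matched genes. The ratio of observed to expected CpG had a median of 0.771 over all of them. It was 0.238 for 23 prostate products, 0.330 for 4086 genes under 0.1 in both libraries and 0.907 for 63 ribosomal protein genes. Among genes at 1 or more, the median was 0.833 for means under 10, 0.861 from 10 to 100, 0.867 from 100 to 1000 and 0.899 at 1000 or more. The median of the prostate products thus lay nearer to that of silent genes, but their members differed. KLK3, KLK2 and KLK4 were at 0.0719, 0.109 and 0.144. SPON2, SLC45A3, STEAP2 and STEAP1, also high here, were at 0.746, 0.747, 0.794 and 0.844, near the median of all promoters. SEMG1 and SEMG2, listed at 0 in both libraries, were at 0.0759 and 0.147 and count in the list.

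Letters of core promoter motifs varied with level in another way. TATAA on the gene's strand, between 40 and 15 bases before the start, was in 5.56% of all promoters. It was in 11.3% of those under 0.1, in 2.06% at means of 10 to 100 and in 12.7% at 1000 or more, so both ends of the range held it most often. CTTTCC on the gene's strand from 10 bases before to 20 bases after the start, which overlaps the pyrimidine tract known from ribosomal protein genes, was in 23.8% of the 63 ribosomal promoters and in 1.53% of all. CCGGAAGT on either strand, the core known for ETS factors, was in 14.3% of ribosomal promoters, 5.2% of all and 0.66% of those under 0.1. AGAACA on either strand was in 9.28% of all promoters and in 2 of 23 prostate products, KLK3 and RLN1.

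Nuclear receptors, a family of hormone-activated factors and their relatives, numbered 24 of 47 at 1 or more in both libraries, which is 51.1% against 55.9% of all genes. ESRRA, an orphan receptor of energy metabolism, was at 137 in replicate 1 and 96.4 in replicate 2. NR1H2, an oxysterol receptor, was at 119 and 67.5, and NR2F6, an orphan receptor, at 103 and 65.1. RXRB, a common dimer partner, was at 45.2 in replicate 1 and 27.7 in replicate 2. NR2F2, an orphan receptor known as COUP-TFII, was at 20.5 and 47.2, the reverse order of its neighbours.

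Several steroid receptors were low. NR3C1, the glucocorticoid receptor, was at 0.130 in replicate 1 and 0.102 in replicate 2. ESR1 and PGR, the estrogen receptor alpha and the progesterone receptor, were listed at 0 in both libraries. NR3C2, the mineralocorticoid receptor, was at 2.34 in replicate 1 and 2.33 in replicate 2. VDR, the vitamin D receptor, was at 5.43 and 4.42.

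All 24 measured coregulators of steroid receptors reached 1 in both libraries. The coactivators that the study's compounds bind were low within this list: EP300 was at 7.46 in replicate 1 and 10.5 in replicate 2, and CREBBP at 6.51 and 12.1. PRMT1, an arginine methyltransferase, led with 288 and 252. NCOA3, a p160 coactivator, had the lowest mean at 2.60 and 2.46.

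Receptors at the cell surface differed by family. Of 58 receptor tyrosine kinases, 24 reached 1 in both libraries (41.4%, against 55.9% of all genes), 22 were under 0.1 in both and 14 of those were listed at 0. ERBB2, the HER2 kinase, led with 133 in replicate 1 and 122 in replicate 2, and ERBB3, its kinase-poor partner, was at 50.4 and 43.3. DDR1, a collagen receptor, was at 89.5 and 85.0. EGFR was at 5.10 in replicate 1 and 6.11 in replicate 2, well below ERBB2 in both. IGF1R, a receptor for insulin-like growth factors, was at 3.52 and 3.22. MET, the hepatocyte growth factor receptor, was at 0.170 and 0.566. KIT, KDR and AXL were under 0.1 in both libraries.

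**Figure D3:**
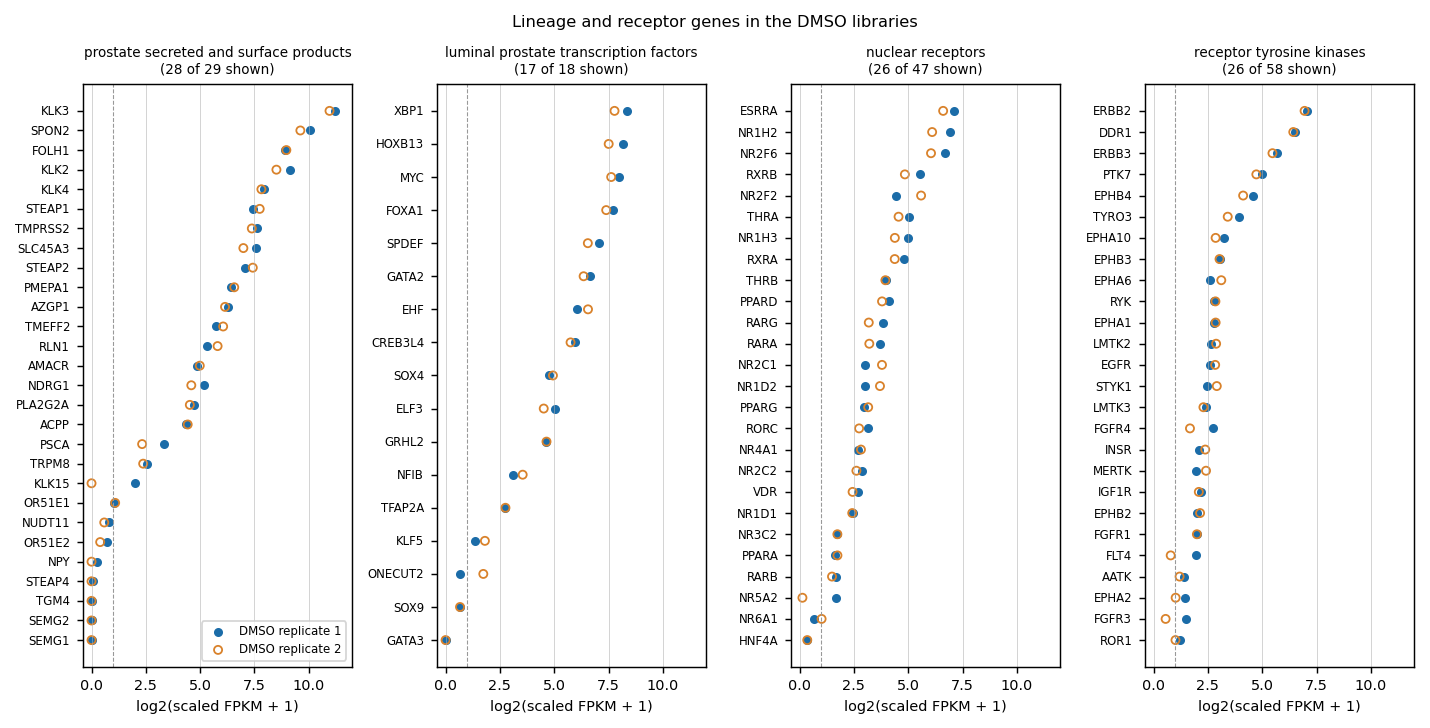
Higher members of 4 gene lists ordered by their mean, with levels as log2(scaled FPKM + 1) in DMSO replicate 1 (filled) and DMSO replicate 2 (open) and a dashed line at a scaled FPKM of 1. KLK3 leads the products, XBP1 the factors, ESRRA the nuclear receptors and ERBB2 the tyrosine kinases, and for most members both libraries give nearly the same point.

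Cytokine receptors numbered 26 of 32 at 1 or more in both libraries (81.2%). LTBR, the lymphotoxin receptor, was at 149 in replicate 1 and 103 in replicate 2, and TNFRSF1A, a receptor for tumour necrosis factor, at 71.0 and 47.5. TGFBR2, needed for TGF-beta signalling, was at 0.146 and 0.372, while its partner TGFBR1 was at 3.77 and 6.2. IL6ST, the shared chain of interleukin-6 type receptors, was listed at 5.17 in replicate 1 and 41.4 in replicate 2. In replicate 2, 90.3% of this sat on a transcript of 168 bases, and without short transcripts IL6ST was at 2.23 and 4.21. Among Notch, Wnt and Hedgehog receptors, 16 of 21 reached 1, led by LRP5, a Wnt co-receptor, at 29.4 and 25.5.

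Of 30 G protein coupled receptors picked for prostate cells, 11 reached 1 in both libraries (36.7%, against 55.9% of all genes). ACKR3, an atypical chemokine receptor, was at 128 in replicate 1 and 105 in replicate 2. LPAR3, a receptor for lysophosphatidic acid, was at 45.2 and 42.8. OR51E1 and OR51E2, olfactory receptors known from the prostate, were at 1.05 and 0.664 in replicate 1 and at 1.12 and 0.318 in replicate 2. CXCR4, a chemokine receptor, was at 0.145 and 0.185.

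Enzymes that make, convert or inactivate steroids were partly present. Of 29 measured genes, 11 reached 1 in both libraries (37.9%, against 55.9% of all genes). CYP17A1, HSD3B2 and STAR, early steps of steroid synthesis, were under 0.1 in both. CYP11A1, which cuts the cholesterol side chain, was at 10.9 in replicate 1 and 0.954 in replicate 2, so its level is not settled by these libraries. SRD5A3 and SRD5A1, of the steroid 5-alpha-reductase family, were at 58.5 and 23.9 in replicate 1 and at 59.1 and 10.8 in replicate 2. UGT2B17 and UGT2B15, which tag androgens for excretion, were at 19.5 and 7.60 in replicate 1 and at 19.4 and 9.77 in replicate 2. HSD17B4, an enzyme of peroxisomes, was at 114 and 124. HSD17B10 and DHRS7, also of this list, were higher, at 431 and 383 in replicate 1 and at 241 and 401 in replicate 2. Some other converting or inactivating enzymes were low. HSD17B3 and AKR1C3, which reduce androgen precursors, were at 0.494 and 0.784 in replicate 1 and listed at 0 in replicate 2, and SULT2A1, a steroid sulfotransferase, was listed at 0 in both. SRD5A2 was not analysed here.

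Lipid synthesis, known as a target of androgens, was broadly present, with 24 of 25 measured genes at 1 or more and 9 at 100 or more in both libraries. FADS2, a fatty acid desaturase, was at 605 in replicate 1 and 367 in replicate 2. FASN, the fatty acid synthase, was at 120 and 177. Zinc, citrate and polyamine genes, which serve the prostate's secretion, reached 1 in 26 of 29 cases. ODC1, the first enzyme of polyamine synthesis, was at 434 in replicate 1 and 283 in replicate 2, and SRM, spermidine synthase, at 454 and 276. MT2A, a metallothionein that binds zinc, was at 275 and 148. MT1E and ANPEP, a surface peptidase, were listed at 0 in both.

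Genes of cell division were present almost throughout. Of 27 proliferation genes, 26 reached 1 in both libraries, and the exception was the cyclin CCND2, at 0.0114 in replicate 1 and listed at 0 in replicate 2. CCNB1, the mitotic cyclin, was at 189 and 180, PCNA, the replication clamp, at 113 and 119, and MKI67, a marker of cycling cells, at 5.45 and 9.04. CCND1 was at 99.7 in replicate 1 and 96.0 in replicate 2. CDKN1A, the p21 inhibitor, was at 328 and 196.

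Genes known from tumour suppression and repair were also measured. MSH6, a mismatch repair protein, was at 13.0 in replicate 1 and 22.5 in replicate 2. RB1, the retinoblastoma protein, was at 5.59 and 6.53. MYCN, a growth-promoting relative of MYC, was listed at 0 in both libraries.

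Whole gene families were close to silent. Of 358 olfactory receptor genes, 342 were under 0.1 in both libraries, and 4 reached 1, led by OR2B6 at 3.29 in replicate 1 and 4.45 in replicate 2. None of 92 keratin-associated proteins of hair, none of 27 taste receptors and none of 12 interferon alpha genes reached 1 in both. Of 55 keratins, 5 reached 1 in both, and KRT8 and KRT18 stood far above the next, KRT10, a skin keratin, at 53.7 and 34.0. At the opposite end, 75 of 76 mitochondrial ribosomal proteins and 36 of 39 proteasome subunits reached 1 in both. Cancer-testis genes, known from germ cells and some tumours, were partly on. MAGEA3 was at 94.6 in replicate 1 and 106 in replicate 2, and GAGE12F was at 61.6 and 77.7, with the split among their near-identical copies uncertain.

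Transcript usage was next described for 9115 genes that have at least 2 transcripts in the table and a level of 1 in both libraries. The transcript with the highest FPKM, called leading here, was the same in both libraries for 7138 of them (78.3%). Its share of the gene had a median of 68.5% in replicate 1 and 69.6% in replicate 2. For 1617 genes it was the same and held at least 90% in both, and for 1193 genes the leading transcript held under 50% in both. Agreement rose with level, to 81.4% of genes at 5 or more and 82.8% at 10 or more.

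KLK3 was led by KLK3-201, which codes for 261 residues, at 74.1% in replicate 1 and 78.9% in replicate 2, followed by KLK3-202 with 238 residues at 11.9% and 9.96%. KLK2 was led by KLK2-203, a form of 159 residues, at 68.2% in replicate 1 and 66.0% in replicate 2, ahead of KLK2-202 with 223 residues at 22.9% and 25.3%. KLK2-201, the form of 261 residues, held 0.131% and 0.00479%. These shares are estimates that divide reads among overlapping transcripts. KLK4 was split between KLK4-201 with 254 residues (52.9% and 48.3%) and KLK4-202 with 110 residues (47.1% and 51.7%), so the order turned between libraries. FOLH1 turned likewise, with FOLH1-201 (750 residues) at 55.2% in replicate 1 and 41.7% in replicate 2 and FOLH1-203 (719 residues) at 35.8% and 47.3%. TMPRSS2 was led by TMPRSS2-201 in both, at 92.1% and 97.0%.

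Among regulators, CREBBP was led by CREBBP-201 of 2442 residues at 71.2% in replicate 1 and 46.7% in replicate 2. EP300, FOXA1 and HOXB13 have a single transcript in the table. MYC was led by MYC-205, which codes for 453 residues, at 56.7% in replicate 1 and 60.5% in replicate 2, ahead of MYC-202 with 439 residues. PKM, the pyruvate kinase of glycolysis, was carried by PKM-202, the M2 form, at 96.6% and 95.2%. INSR was led by INSR-202 of 1370 residues, the form without the alternative exon, at 81.4% and 87.3%. BCL2L1 was led by BCL2L1-201, which codes for the survival form Bcl-xL of 233 residues, at 59.7% and 59.9%.

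**Figure D4:**
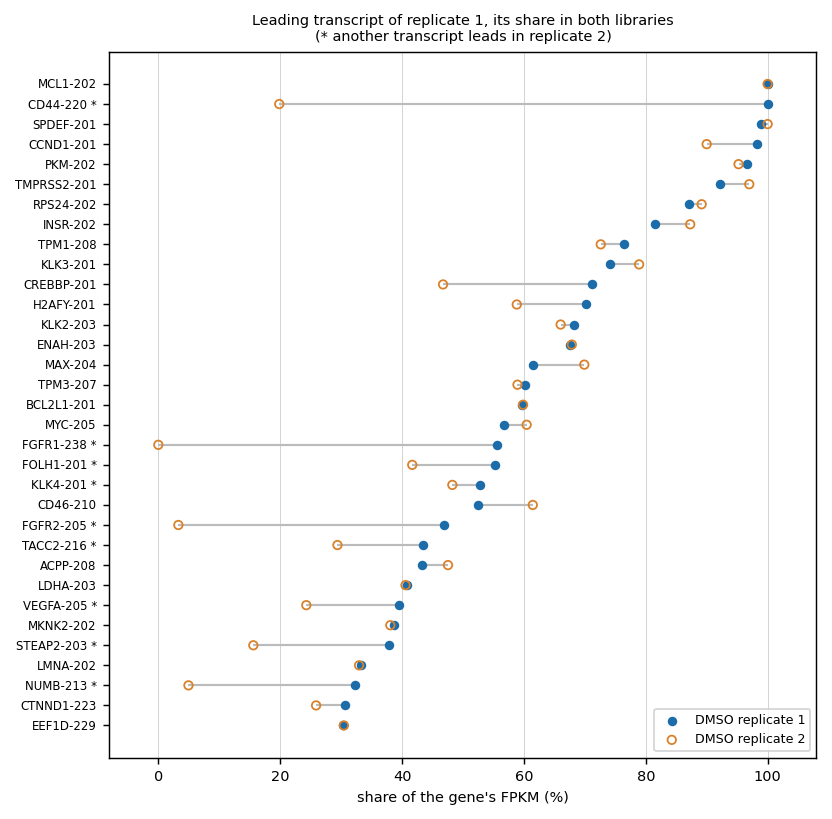
Share of a gene's FPKM, in percent, held by the transcript that leads in DMSO replicate 1, shown in DMSO replicate 1 (filled) and DMSO replicate 2 (open) for genes of a fixed list with at least 2 transcripts. PKM-202 holds 96.6% and 95.2%, while the asterisked genes, KLK4 and FOLH1 among them, have another leader in replicate 2.

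Some transcript calls differed widely between the libraries. FGFR1, a fibroblast growth factor receptor at 2.95 in replicate 1 and 2.97 in replicate 2, kept its summed level while FGFR1-238 held 55.6% in replicate 1 and 0.00956% in replicate 2. NUMB, a Notch regulator, was led by NUMB-213 at 32.3% in replicate 1 and by NUMB-225 at 76.3% in replicate 2. For DMXL2, 80.7% of the FPKM in replicate 2 sat on DMXL2-206, a transcript of 307 bases that held almost nothing in replicate 1, and the gene was listed at 1.98 and 24.8.

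The 2 libraries were close over most genes. Across 10856 genes at 1 or more, log2(scaled FPKM + 1) gave a Pearson r of 0.970 and a Spearman rho of 0.962, as a description across genes, which are not independent replicates. Of these genes 95.3% lay within 2-fold, and the median size of the log2 ratio was 0.34. The share within 2-fold was 89.9% at means of 1 to 5, 97.6% at means of 100 to 1000 and 95.2% at 1000 or more. The median size of the log2 ratio was 0.35, 0.45 and 0.44 at these levels. The median log2 ratio of replicate 1 to replicate 2, with its sign, was -0.10, 0.39 and 0.26. Among 6882 genes with a mean of 10 or more, 124 (1.8%) were at least 2-fold higher in replicate 1 and 136 (1.98%) at least 2-fold lower.

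The median log2 ratio of replicate 1 to replicate 2 over the 6882 genes was 0.21, and -0.01 when the libraries were set to a common total only, a shift of -0.21 that applies to every gene. Of the 10 genes with the lowest ratio, 9 were genes of the histone clusters, a class that is mostly made in S phase with mRNA that lacks a poly(A) tail. HIST1H4C, a histone H4 gene, was at 24.6 in replicate 1 and 253 in replicate 2, HIST1H1E, a linker histone, at 6.78 and 146, and HIST1H2AH at 0.570 and 58.9. Of 45 cluster histone genes 32 were lower in replicate 1, with medians of 8.24 in replicate 1 and 63.5 in replicate 2. Of the 33 with a mean of 10 or more, 24 were at least 2-fold lower, against 1.98% of all such genes. With a mean of 10 or more, 28 of 33 were lower in replicate 1, 30 with a common total and 20 with FPKM as deposited. Over all 6882 genes the counts were 2377, 3474 and 29. HIST1H2BK was listed near 0 in replicate 1 and at 148 in replicate 2, while the other 3 libraries with number 1 had 139, 37.9 and 128.

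The genes with the highest ratio were a mixed set. XAB2, a splicing and repair factor, was at 44.3 in replicate 1 and 0.188 in replicate 2. NBR1, an autophagy receptor, was at 20.1 and 1.26, and BCAP31, a protein of the endoplasmic reticulum, at 291 and 70.0. In the other libraries with number 2 (I-CBP112, A-485, both compounds), XAB2 was at 0.202, 0.145 and 27.4. NBR1 was at 22.4, 19.3 and 14.4 there, so its low value was seen in DMSO replicate 2 only. In the other libraries with number 1, XAB2 was at 35.0, 25.9 and 22.7 and NBR1 at 20.9, 19.4 and 25.7. RNF170, a ubiquitin ligase, was at 40.7 and 4.10, but without short transcripts at 3.89 and 4.31. SSR4P1, a pseudogene whose reads may belong to its parent gene, was at 63.7 in replicate 1 and listed at 0 in replicate 2.

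The ratio also followed the GC content of the leading transcript. Over 5 groups of the 6882 genes ordered by GC content, with median GC contents from 40.7% to 62.9%, the median log2 ratio of replicate 1 to replicate 2 was -0.22, 0.02, 0.24, 0.41 and 0.50. Across these genes the Pearson r with GC content was 0.48 and the Spearman rho 0.57, and the rho with transcript length was 0.01. The other pairs of libraries leaned the same way from the lowest to the highest group, from -0.05 to 0.15 with I-CBP112, from -0.22 to 0.32 with A-485 and from -0.13 to 0.18 with both compounds. The part of GC content and of depth in the differences between libraries was not tested.

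**Figure D5:**
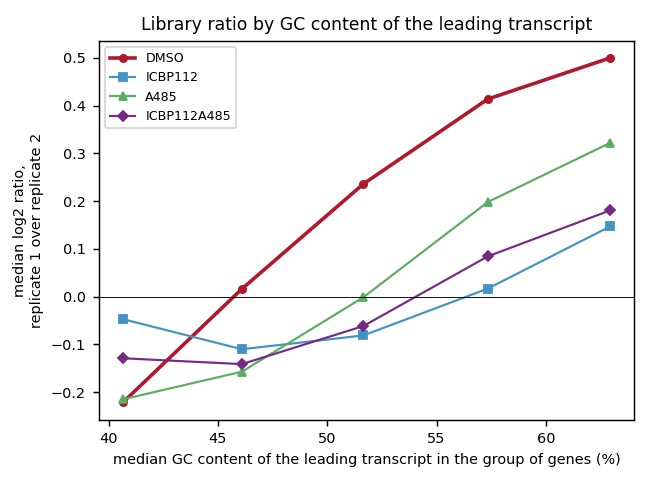
Median log2 ratio of replicate 1 over replicate 2 (vertical axis) in 5 groups of genes ordered by the GC content of their leading transcript (horizontal axis, median of the group in percent), for DMSO and the other 3 pairs of libraries. The DMSO line climbs from -0.22 to 0.50, and the other pairs end at 0.15, 0.32 and 0.18.

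Because 2 libraries cannot test their own difference, numbers 1 and 2 were compared in the 6 treated libraries, with treatment as a block, which leaves 2 residual degrees of freedom. By limma with Benjamini-Hochberg adjustment, 676 of 11746 genes (5.76%) differed, 331 higher in number 1 (2.82%) and 345 lower (2.94%). The number of calls fell to 6 without the treatment block, to 9 without a filter on low values, to 14 and 15 without either A-485 library, to 28 and 29 without either library of both compounds, and to 300 and 288 without either I-CBP112 library, so the calls given here are those of the fit with all 6 libraries, the filter and the block. Scaling to a common total alone gave 742 higher and 133 lower, so the split between directions depends on the scaling. Of the 124 genes at least 2-fold higher in DMSO replicate 1, 35 were called in the treated pairs, 33 of them in the same direction. Of 135 tested genes at least 2-fold lower, 28 were called, 27 in the same direction. Among all 676 called genes, 585 had the direction of the DMSO pair, as did 7227 of all 11746 genes tested.

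Cluster histone genes (38.9% called) and ribosomal protein genes (44.2% called) were among these calls, against 5.76% of all genes tested. Of 36 tested cluster histone genes 14 were called, all lower in number 1, among them HIST1H4C, whose log2 difference was -2.42 ± 0.10 (SE) with a limma adjusted p of 0.00176, beside -3.31 in the DMSO pair. With a common total 13 were called lower and 1 higher. Of 77 ribosomal protein genes 34 were called, all lower in number 1, and 20 with a common total, again all lower. The calls of both classes depended on the fit. Without the treatment block none was called in either class, and without the filter on low values 2 ribosomal and 0 histone genes were. Without either A-485 library 0 ribosomal genes and 1 histone gene were called, without either library of both compounds 0 ribosomal genes and 16 or 15 histone genes, and without either I-CBP112 library 23 or 20 ribosomal genes and 4 histone genes. The median difference of both classes stayed below 0 in each of these fits. In the DMSO pair, 43 of 77 ribosomal protein genes were lower in replicate 1, 49 with a common total and 0 with FPKM as deposited. Of all 6882 genes with a mean of 10 or more, 2377, 3474 and 29 were lower under these 3 scalings. RPL23 was at 3282 in DMSO replicate 1 and 7413 in DMSO replicate 2, a log2 ratio of -1.18, and differed by -0.71 ± 0.15 (SE, limma adjusted p 0.0481) in the treated pairs. ERF differed by 0.87 ± 0.12 (SE, limma adjusted p 0.0299) in the treated pairs and by 1.60 in the DMSO pair. BCAP31 differed by 0.98 ± 0.16 (SE, limma adjusted p 0.0365) beside 2.04 in the DMSO pair.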

How the data were processed

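RNA-seq of 8 LNCaP-FGC libraries was used, of which the 2 DMSO libraries are described. The authors deposited a table of FPKM for 81591 transcripts, and 78.3% of its values are not whole, so no count test was run. The tools DESeq, DESeq2, Cufflinks and STAR and the build GRCh37 (hg19) are named, with neither role nor version, per the submitters' processing notes.

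From this table, 74209 transcripts (91.0%) were matched by identifier to 19431 genes of GENCODE 29, and FPKM was summed per gene. Each library was set to a total of 1000000 and divided by an unweighted trimmed mean of log ratios (30% trim of ratios, 5% of levels), which was 0.808 for DMSO replicate 1 and 0.938 for DMSO replicate 2. Coding lengths come from the same annotation. Assigned fragments were estimated from the steps of low values in genes with a single transcript of at least 3000 bases, of which 67.8% in replicate 1 and 67.3% in replicate 2 were whole within 0.1; floors of 3 fragments cover counting error only. Levels carry no test. The only test was limma 3.58.1 (R 4.3.3) on log2(scaled FPKM + 1), trended and robust, for genes at 1 or more in at least 2 of the 6 treated libraries, first checked on simulated data; fold changes on this scale understate the change of low genes. Python 3.11.15, pandas 2.3.3 and numpy 2.4.6 did the rest.

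Members and gene lists (24 lists, 547 genes) were chosen with earlier results of these data known. Named genes are the 30 highest, the 20 highest outside translation and mitochondria, the 8 highest and the silent members of each list (short lists in full), the isoform list, and the 10 largest library ratios each way; a few further list members are named because a reader would look for them, chosen after their values were seen. Some list members count in the list totals but are not reported here by name. Promoter letters come from RefSeq (GRCh38.p14), found for 15200 genes. Alternatives were another scaling, FPKM as deposited, mitochondrial genes left out, another pseudocount, no filter, no treatment block, each library left out, and, chosen after seeing the data, transcripts of at least 300 bases only.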

Additional observations from a re-analysis of the deposited data

How the results depend on the processing

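The counts of genes at each level, the shares of the total and the list counts kept within 1.5 times of their value or within the spread of the libraries under the alternatives run, with the following exceptions. The median level of genes at 1 or more, 16.6, was 14.8 with a common total only, 10.7 with FPKM as deposited, 17.9 without mitochondria-encoded genes, 17.2 with transcripts of at least 300 bases (chosen after seeing the data), and 15.1 to 15.5 with a DMSO library left out. With FPKM as deposited, 218 genes reached 100 in both DMSO libraries, against 1227. With transcripts of at least 300 bases the 100 highest genes held 45.9% of the total. The same transcript led in both libraries for 4574 genes at a level of 10 or more, a smaller set by construction.

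The limma test of numbers 1 and 2 in the treated libraries was fragile. It called 676 genes as run, 621 with a pseudocount of 0.1, 9 without a filter on low values, 6 without the treatment block, and 14 to 300 with a treated library left out. The fits without a library have 1 residual degree of freedom and assume that the lone library varies like the others. Leaving out either A-485 library gave 14 and 15 calls, leaving out a library of both compounds 28 and 29, and leaving out an I-CBP112 library 300 and 288. The cause was not tested. Beyond these, 67 values of single genes moved by less than the spread between libraries and 35 by more, none with a direction to turn.

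No paired analysis was possible because the DMSO libraries are compared with no other group, and the test of library numbers compares the numbers themselves. Leaving out a DMSO library gives no value for the agreement of the libraries. In replicate 2, levels under 0.428 on a transcript of 2000 bases rest on fewer than 3 fragments, so low genes there are not told apart from absent ones.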

Other observations

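Further gene families differed in how many members were present, against 55.9% of all genes at 1 or more in both DMSO libraries. Of 371 solute carrier genes, 192 (51.8%) reached this level, near the share of all genes, and 122 were under 0.1 in both, with SLC25A3, the phosphate carrier of mitochondria, highest at 1132 in replicate 1 and 682 in replicate 2. Of 53 cytochrome P450 genes, 10 (18.9%) reached 1 in both, led by CYP51A1, an enzyme of cholesterol synthesis, at 40.8 and 35.6. Numbered zinc finger genes were broadly present, with 359 of 463 (77.5%) at 1 or more in both and ZNF32 highest at 115 and 130.

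Matrix and adhesion genes were sparse. Of 44 collagen chains, 8 reached 1 in both libraries. COL6A1, a chain of collagen VI, was at 37.4 in replicate 1 and 38.7 in replicate 2, and COL4A5, a chain of basement membrane collagen, at 17.4 and 31.2. Of 26 integrin chains, 8 reached 1 in both, led by ITGB1, the common beta chain, at 76.3 in replicate 1 and 80.03 in replicate 2. Of 24 claudins, 7 did so, with CLDN7, CLDN4 and CLDN3 at 706, 263 and 177 in replicate 1 and at 540, 199.8 and 105 in replicate 2. HIST1H1C, a linker histone gene, was at 902 in replicate 1 and 671 in replicate 2, against the direction of most cluster histones.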
